A study of Homo sapiens with 6 samples.

Results

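The 10 genes described here control how readily a cell undergoes apoptosis. They comprise the inhibitor of apoptosis genes BIRC2, BIRC3 and XIAP, the caspase-8 inhibitor CFLAR, the pro-survival BCL2 family genes BCL2, BCL2L1, MCL1 and BCL2A1, and the BH3-only genes BCL2L11 and BID. They were taken by gene symbol from a table of 58735 genes, and each symbol was found on 1 row. The question was how their RNA differed after knockdown of DAB2IP, a RAS GTPase-activating protein that also restrains NF-κB signaling.

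RNA-Seq was performed on 6 libraries of MCF10A, an established nonmalignant line of human breast epithelial cells. In 3 libraries (siControl, genotype label WT) the cells had received a nontargeting siRNA pool, and in 3 (siDAB2IP, genotype label DAB2IP knockdown) they had received siRNA targeting DAB2IP. RNA was isolated 48 hours after transfection, and all cells were grown with insulin, epidermal growth factor, cholera toxin, hydrocortisone and horse serum. A single control reagent and a single DAB2IP reagent were compared in a single line, so an effect of these siRNAs on other genes cannot be told apart from the loss of DAB2IP. The labels do not say whether replicates came from separate cultures, and the p-values measure only the spread between these libraries. In bulk RNA, fewer cells of a type and less RNA per cell cannot be told apart.

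Total counts ranged from 16353783 to 21916062 in siControl and from 16669134 to 18085367 in siDAB2IP. A count of 0 allows up to 3 counts, which is 0.139 to 0.187 CPM (counts relative to the TMM-scaled library total), a limit that takes in counting error alone. DAB2IP itself was at 103.1, 94.25 and 77.38 CPM in siControl replicates 1 to 3 and at 27.47, 25.59 and 22.38 CPM in siDAB2IP (log2 fold change −1.86, SE 0.132, adjusted p = 9.71e-05). Basal markers of the line were abundant: KRT5 averaged 3532 CPM in siControl and 1800 CPM in siDAB2IP, and KRT5, KRT14 and KRT17 fell while LAMB3 rose. All 4 general epithelial markers were present and none was called, whereas the hormone-sensing markers ESR1 (0.139 to 0.609 CPM) and PGR (0 in all libraries) were near or at 0. The 5 fibroblast markers summed to 163 to 293 CPM in siControl and 146 to 205 CPM in siDAB2IP, mostly DCN (201.4 and 143.4 CPM on average, adjusted p = 0.151, not called), while COL1A1 rose from 15.29 to 26.31 CPM (log2 fold change 0.78, adjusted p = 0.0129). The 5 leukocyte markers summed to 35.9 to 70.0 and 49.7 to 77.3 CPM, almost all CD14, with CD3E at 0. The 4 endothelial markers summed to 23.1 to 33.1 and 14.8 to 16.3 CPM, and KDR fell. The 2 erythroid markers, HBA1 and HBB, summed to at most 0.125 CPM. The part of these markers in the results below was not tested.

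Apoptosis runs along a pair of routes that meet at the caspases. At the mitochondrion, BAX and BAK1 open the outer membrane unless pro-survival BCL2 proteins hold them in check, and BH3-only proteins neutralize these protectors or activate BAX and BAK1. At death receptors, caspase-8 is activated in a complex that cFLIP, the product of CFLAR, keeps in check, while XIAP blocks active caspases and cIAP1 and cIAP2, the products of BIRC2 and BIRC3, ubiquitinate RIPK1 and feed survival signals into NF-κB. BIRC3, CFLAR, BCL2L1 and BCL2A1 are textbook NF-κB target genes.

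Of the 10 genes, 9 passed the filter on low counts and were tested, and BCL2A1 did not pass. In siDAB2IP, BIRC3 and CFLAR fell, BCL2L1 rose, and 6 genes were not called at an adjusted p under 0.05 (edgeR quasi-likelihood test, adjusted over 15430 genes). Thus 33.3% of the tested members were called, beside 14.2% of all genes tested. 1 member rose, beside 6.55% of all genes that rose, and 2 members fell, beside 7.65% that fell. These shares describe 9 genes and are no test of the group. The median log2 fold change was −0.19 for the members and 0.00899 for all genes tested. Values of siDAB2IP and siControl did not overlap for 4 of the 9 members (44.4%), beside 35.9% of all genes.

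**Figure D1:**
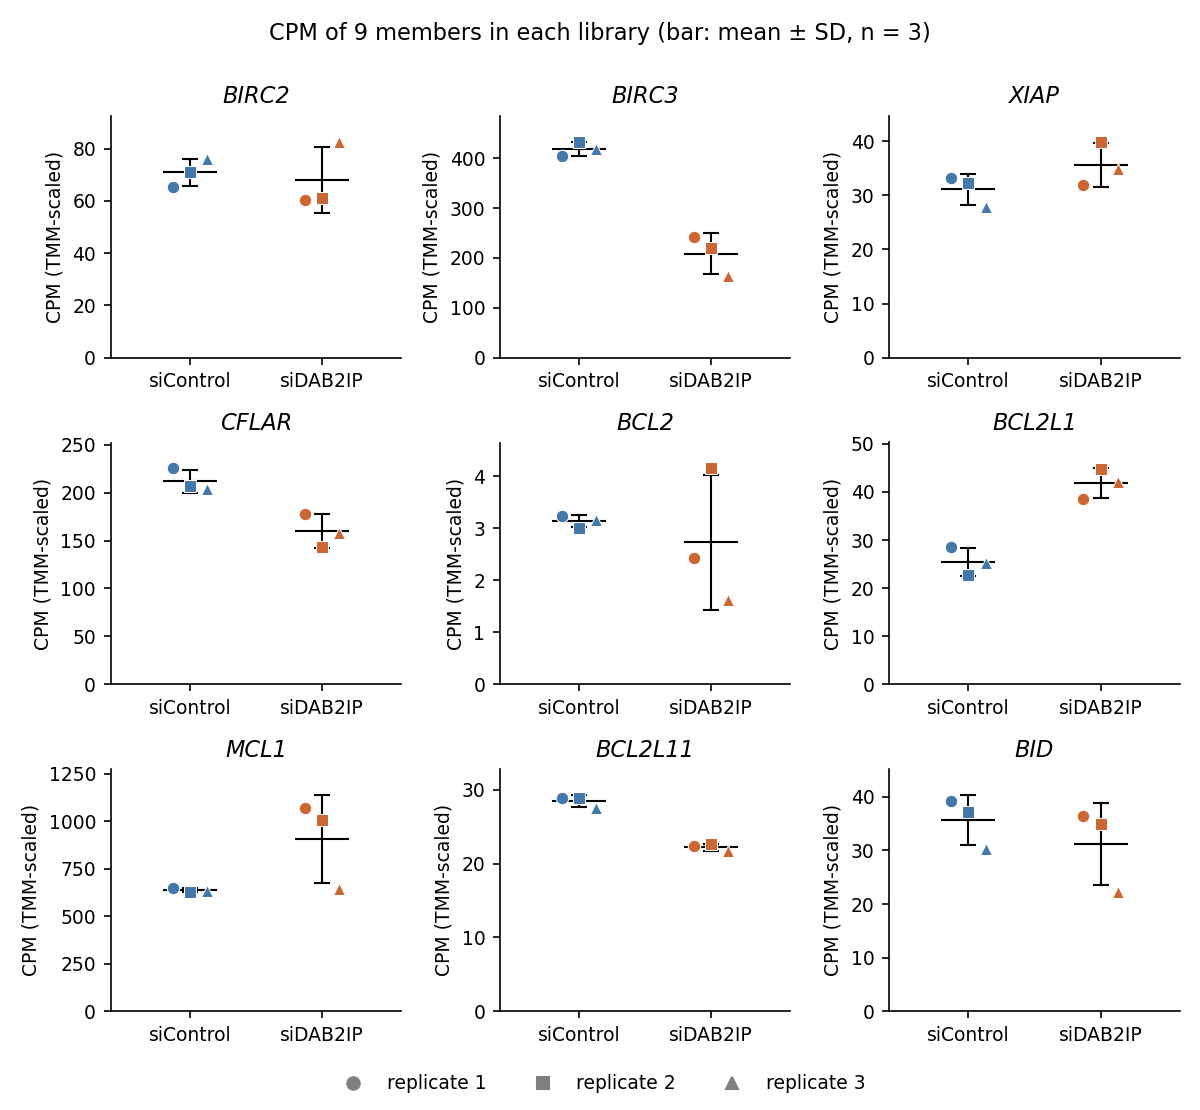
CPM (TMM-normalized, linear axis starting at 0) of the 9 tested genes in the 3 siControl (blue) and 3 siDAB2IP (orange) libraries, with 1 point per library shaped by replicate and black bars for mean and SD. BIRC3, CFLAR and BCL2L11 lie lower and BCL2L1 higher in every siDAB2IP library, while the third siDAB2IP library sits at the siControl level for MCL1.

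BIRC3, encoding cIAP2, fell most among the members. It lies on chromosome 11 (102317450 to 102339403, plus strand, GRCh38; ENSG00000023445). BIRC3 was at 404.4, 433.3 and 418.9 CPM in siControl replicates 1 to 3 and at 242.1, 220.5 and 164.0 CPM in siDAB2IP. Every siDAB2IP library was below every siControl library, and siDAB2IP replicate 3 was the lowest. Mean CPM was 418.9 ± 14.5 (SD, n = 3) in siControl and 208.8 ± 40.3 (SD, n = 3) in siDAB2IP, which is 2.01-fold lower (log2 fold change −1.004, SE 0.142, 95% interval −1.32 to −0.69, adjusted p = 0.00278). The fall was called in 16 of 16 alternative analyses.

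BIRC2, encoding cIAP1, is the neighbor of BIRC3 on the same strand (chromosome 11, 102347211 to 102378670; ENSG00000110330) and starts 7807 bases beyond its end. BIRC2 was at 65.48, 71.17 and 76.03 CPM in siControl and at 60.53, 60.92 and 82.68 CPM in siDAB2IP. The groups overlapped, since siDAB2IP replicates 1 and 2 were the lowest of the 6 libraries and siDAB2IP replicate 3 the highest. The log2 fold change was −0.06 (SE 0.133, 95% interval −0.36 to 0.24, adjusted p = 0.811), and the direction turned when siDAB2IP replicate 1 (0.0171) or replicate 2 (0.0138) was left out.

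The ratio of BIRC3 to BIRC2 counts, taken within a library, needs no scaling between libraries. It was 6.18, 6.09 and 5.51 in siControl and 4, 3.62 and 1.98 in siDAB2IP. The groups did not overlap, and the difference of mean log2 ratios was −0.95, a 1.93-fold lower ratio. An exact permutation test (two-sided) gave p = 0.1, the smallest that 3 libraries against 3 allow, and an exact sign-flip test of the 3 same-numbered pairs gave p = 0.25, likewise its smallest. The difference was −0.64 without siDAB2IP replicate 3, in which the ratio was lowest.

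The promoters of BIRC3 and CFLAR, the members that fell, are shown with that of the neighbor BIRC2, from 250 bases before to 50 bases after the transcription start (RefSeq, GRCh38.p14). The windows span chr11:102317234-102317533 (plus strand) for BIRC3, chr11:102346964-102347263 (plus strand) for BIRC2 and chr2:201118466-201118765 (plus strand, 1 of 4 windows) for CFLAR. Capitals mark matches to the 10-base κB consensus in BIRC3 and CFLAR, and to TGACGTCA in BIRC2.
BIRC3: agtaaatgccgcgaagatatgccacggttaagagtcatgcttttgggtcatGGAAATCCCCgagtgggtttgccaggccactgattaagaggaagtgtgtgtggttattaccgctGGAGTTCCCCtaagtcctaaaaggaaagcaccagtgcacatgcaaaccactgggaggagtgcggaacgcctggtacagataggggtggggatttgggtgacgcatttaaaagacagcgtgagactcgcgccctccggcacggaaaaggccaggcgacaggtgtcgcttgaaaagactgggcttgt
BIRC2: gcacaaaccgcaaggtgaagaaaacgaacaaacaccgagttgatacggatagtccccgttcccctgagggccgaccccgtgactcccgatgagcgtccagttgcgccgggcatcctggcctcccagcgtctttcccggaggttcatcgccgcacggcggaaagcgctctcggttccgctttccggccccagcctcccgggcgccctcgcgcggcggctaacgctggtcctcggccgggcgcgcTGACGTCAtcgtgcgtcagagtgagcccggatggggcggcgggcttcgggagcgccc
CFLAR: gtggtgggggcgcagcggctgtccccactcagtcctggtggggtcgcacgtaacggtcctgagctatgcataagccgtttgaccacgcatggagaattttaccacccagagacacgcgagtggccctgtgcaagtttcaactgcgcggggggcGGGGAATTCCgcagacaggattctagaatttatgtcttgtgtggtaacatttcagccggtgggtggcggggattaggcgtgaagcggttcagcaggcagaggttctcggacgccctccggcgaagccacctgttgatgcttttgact
In BIRC3, both κB matches read on the strand opposite to the gene, and they begin at −199 and −135, counted in bases from the start. In CFLAR the match reads along the gene and begins at −97. The BIRC2 windows held no κB match, and the TGACGTCA in the window printed begins at −7.

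Across both strands of all 35116 RefSeq promoter windows, 11.3% held the κB consensus and 0.994% held it more than once, as the BIRC3 window did. TGACGTCA, the CREB site that reads the same on both strands, was in 1.85% of windows. TGANTCA, the AP-1 site, was in 7.71% and among the members only in a further window of CFLAR. These motifs share no letters with each other in the windows printed. Promoter windows were found for 9 of the 10 genes, and of their 20 windows 2 held the κB consensus. The windows of BCL2L1, the member that rose, held none of the 3 motifs. A match is a description of the letters, and binding was not measured.

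CFLAR (chromosome 2, 201116104 to 201176687, plus strand; ENSG00000003402) was at 225.1, 206.7 and 203.2 CPM in siControl and at 177.9, 142.8 and 157.8 CPM in siDAB2IP. All siDAB2IP libraries lay below all siControl libraries. The mean was 211.7 ± 11.8 CPM (SD, n = 3) in siControl and 159.5 ± 17.6 CPM (SD, n = 3) in siDAB2IP, 1.33-fold lower (log2 fold change −0.41, SE 0.109, adjusted p = 0.0348). The call was lost with limma on FPKM (adjusted p = 0.0501 to 0.114) and without siControl replicate 1 (0.0918), 2 (0.0994) or 3 (0.0649) or siDAB2IP replicate 2 (0.105). The annotation lists 18 coding transcripts of CFLAR, including long and short cFLIP forms, which gene-level counts do not separate, and CFLAR-AS1 on the other strand shares 3.45% of its exon bases.

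XIAP, whose product inhibits caspases directly, lies on chromosome X (123859724 to 123913979, plus strand; ENSG00000101966). It was at 33.15, 32.31 and 27.83 CPM in siControl and at 31.93, 39.93 and 34.96 CPM in siDAB2IP. The groups overlapped through siDAB2IP replicate 1, and the log2 fold change was 0.20 (SE 0.124, 95% interval −0.08 to 0.47, adjusted p = 0.329). Of the 4 inhibitors of caspases and death receptor signaling, 2 fell, beside 7.65% of all genes tested, and 2 were not called.

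**Figure D2:**
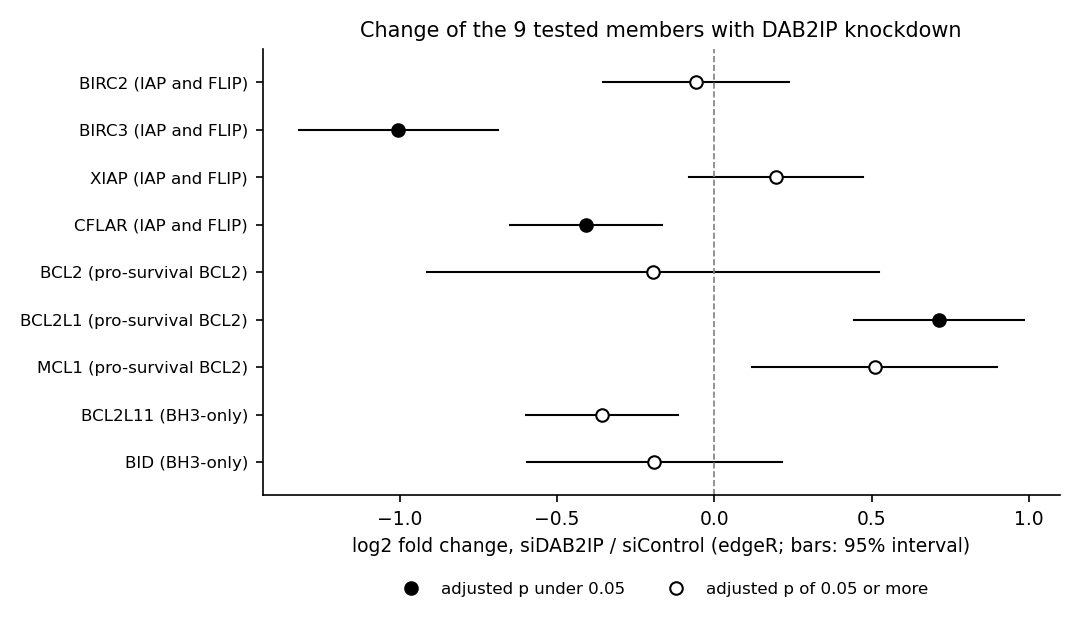
Log2 fold change of siDAB2IP over siControl for the 9 tested genes, grouped by role, with 95% intervals from the edgeR quasi-likelihood fit. The interval of BIRC3 (−1.32 to −0.69) lies furthest below 0 and that of BCL2L1 (0.44 to 0.98) furthest above, and BIRC2, XIAP, BCL2 and BID span 0.

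Among the pro-survival BCL2 genes, BCL2L1, encoding BCL-XL, rose. BCL2L1 (chromosome 20, 31664452 to 31723989, minus strand; ENSG00000171552) was at 28.54, 22.75 and 25.31 CPM in siControl and at 38.53, 44.75 and 42.04 CPM in siDAB2IP. Every siDAB2IP library was above every siControl library. Mean CPM was 25.53 ± 2.90 (SD, n = 3) and 41.77 ± 3.12 (SD, n = 3), 1.64-fold higher (log2 fold change 0.71, SE 0.121, 95% interval 0.44 to 0.98, adjusted p = 0.00569), and the rise was called in 16 of 16 alternative analyses. The antisense gene ABALON shares 43.0% of the exon bases of BCL2L1. ABALON itself held 8 to 19 counts a library, and since the strand used in counting is not given in the sources used here, reads of the pair cannot be told apart there. The pro-survival long form and the pro-apoptotic short form of BCL2L1 are counted together.

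MCL1, a short-lived protector that binds BAK1, lies on chromosome 1 (150574551 to 150579738, minus strand; ENSG00000143384). It was at 650.3, 629.4 and 631.4 CPM in siControl and at 1068, 1009 and 643.0 CPM in siDAB2IP. Replicates 1 and 2 of siDAB2IP were far above all siControl libraries, and replicate 3 lay within their range. The log2 fold change was 0.51 (SE 0.175, 95% interval 0.12 to 0.90, adjusted p = 0.0796), so MCL1 was not called. It was called with the replicate number as a block (0.48, adjusted p = 0.0455) and without siDAB2IP replicate 3 (0.71, adjusted p = 0.000659). With replicate 3 of both groups left out, the log2 fold change was 0.70 (adjusted p = 0.000315).

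BCL2, the founding member of the family, lies on chromosome 18 (63123346 to 63320128, minus strand; ENSG00000171791) and was scarce, with 28 to 75 counts a library. It held 52, 65 and 54 counts in siControl and 43, 75 and 28 counts in siDAB2IP, and the means were 3.14 ± 0.114 and 2.73 ± 1.29 CPM (SD, n = 3 each). In CPM the siDAB2IP libraries lay on either side of the siControl range, and the log2 fold change was −0.20 (SE 0.323, 95% interval −0.91 to 0.52, adjusted p = 0.735). It turned to 0.0697 without siDAB2IP replicate 3. BCL2A1, encoding the pro-survival protein BFL-1 (chromosome 15, 79960889 to 79971446, minus strand; ENSG00000140379), was at 0, 1 and 0 counts in siControl and at 0, 2 and 0 counts in siDAB2IP. Both groups were under the limit of 3 counts in every library, and no difference was detectable at this depth.

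The ratio of BCL2L1 to MCL1 counts within a library was 0.0439, 0.0361 and 0.0401 in siControl and 0.0361, 0.0443 and 0.0654 in siDAB2IP. The groups overlapped, with the highest ratio in siDAB2IP replicate 3, where MCL1 was lowest. The difference of mean log2 ratios was 0.24 (exact permutation test, two-sided, p = 0.5). It was 0.0031 without siDAB2IP replicate 3 and 0.43 without siDAB2IP replicate 1.

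Neither BH3-only member was called. BCL2L11, encoding BIM, lies on chromosome 2 (111119378 to 111168447, plus strand; ENSG00000153094). It was at 28.91, 28.97 and 27.54 CPM in siControl and at 22.34, 22.65 and 21.68 CPM in siDAB2IP. The groups did not overlap and each was tight, with means of 28.47 ± 0.811 and 22.23 ± 0.494 CPM (SD, n = 3 each). The log2 fold change of −0.36 (SE 0.108, 95% interval −0.60 to −0.12) had an adjusted p = 0.053, and with the replicate block adjusted p = 0.043. MIR4435-2HG on the other strand shares 10.9% of the exon bases of BCL2L11 and held 286 to 339 counts a library, so reads in the shared part are uncertain.

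BID, which caspase-8 cleaves to link death receptors to mitochondria, lies on chromosome 22 (17734138 to 17774770, minus strand; ENSG00000015475). It was at 39.31, 37.19 and 30.35 CPM in siControl and at 36.44, 34.84 and 22.32 CPM in siDAB2IP. The groups overlapped, and in each of them replicate 3 was the lowest. The log2 fold change was −0.19 (SE 0.182, 95% interval −0.60 to 0.22, adjusted p = 0.532), and 0.0011 without siDAB2IP replicate 3.

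The siDAB2IP replicates thus differed among themselves for some members. Relative to the siControl mean on the log2 scale, siDAB2IP replicates 1, 2 and 3 stood at −0.79, −0.93 and −1.35 for BIRC3, and at 0.75, 0.66 and 0.01 for MCL1. For BID the values were 0.04, −0.02 and −0.66. BCL2L1 (0.60, 0.81 and 0.72) and BCL2L11 (−0.35, −0.33 and −0.39) varied less. Replicate 3 was therefore further down for BIRC3 and BID, back at the control level for MCL1 and like the others for BCL2L1 and BCL2L11.

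Levels of different genes were compared only per length, as the deposited FPKM. In siControl the order was MCL1 (144.4 ± 2.39 FPKM, SD, n = 3), BIRC3 (55.22 ± 2.04), BIRC2 (15.51 ± 1.16), CFLAR (9.31 ± 0.507), BID (7.94 ± 1.05), BCL2L1 (7.63 ± 0.850), BCL2L11 (4.24 ± 0.126), XIAP (3.42 ± 0.316) and BCL2 (0.265 ± 0.00892). Of these neighbors in the order, only BID and BCL2L1 overlapped between their libraries. MCL1 stood above 99.3% and BIRC3 above 97.7% of the 26894 genes with an FPKM above 0 in a siControl library, BCL2 above 38.2%. Of the pro-survival BCL2 genes, MCL1 was thus the most abundant per length, with BCL2L1 far below and BCL2 lower still. BCL2A1 was listed at 0 FPKM in siControl replicates 1 and 3 and at 0.0424 FPKM in replicate 2.

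In siDAB2IP, MCL1 (205.2 ± 52.3 FPKM, SD, n = 3) and BIRC3 (27.48 ± 5.34) kept the top places, and BIRC2 stood at 14.85 ± 2.75 FPKM. BCL2L1 stood next at 12.47 ± 0.914 FPKM, overlapping BIRC2 and above CFLAR (7.004 ± 0.784), whose values overlapped those of BID (6.94 ± 1.73). XIAP (3.90 ± 0.438) stood above BCL2L11 (3.30 ± 0.0753), the reverse of their order in siControl. FPKM divides by the length of the whole gene model, which is 22529 bases for CFLAR and 4371 for MCL1, so the level of CFLAR depends on that length.

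**Figure D3:**
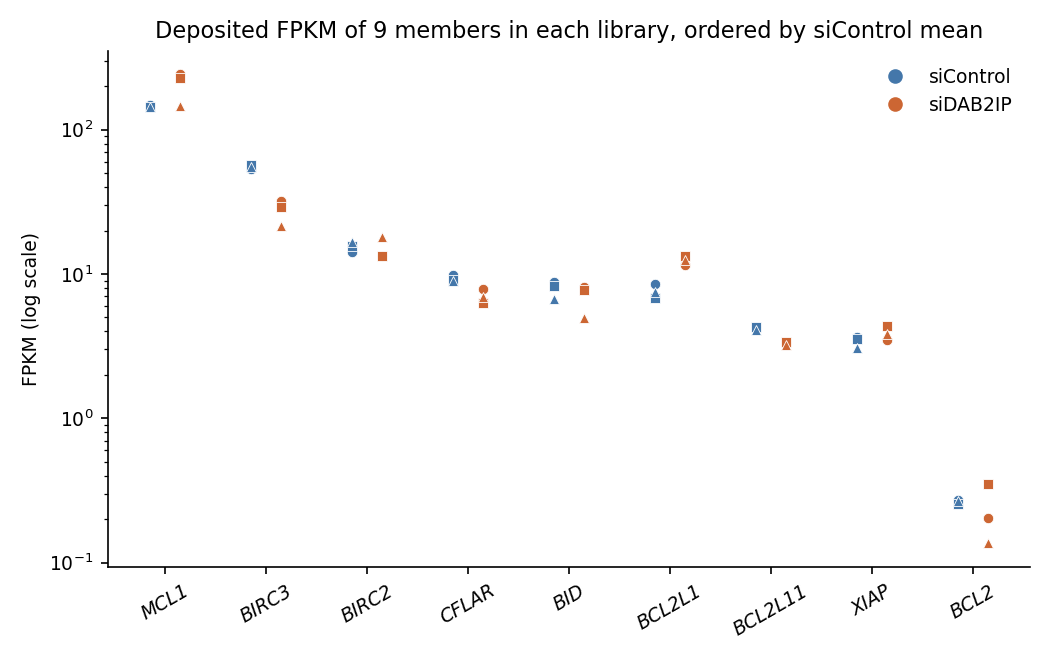
Deposited FPKM of the 9 tested genes on a log axis, ordered by their siControl mean, with 1 point per library (blue siControl, orange siDAB2IP; circles, squares and triangles for replicates 1, 2 and 3). MCL1 (143 to 147 FPKM in siControl) tops the order, BCL2 (0.255 to 0.272 FPKM) is lowest of the 9 tested genes, and BCL2L1 passes CFLAR and BID in siDAB2IP.

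A further 42 genes of the same pathway were examined: other BCL2 family and IAP genes, IAP antagonists, caspases, the apoptosome, death receptors with their ligand TRAIL, and receptor adaptors. All were found and 36 were tested. 4 rose and 1 fell, 13.9% of those tested beside the 14.2% of all genes, and 18 (50%) did not overlap between the groups, beside 35.9% of all genes. Their median log2 fold change was 0.12. BCL2L10, BCL2L14, BCL2L15, BIRC7, BIRC8 and XAF1 were too low to test, with BIRC8 at 0 in every library.

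Of the 3 effectors, which form the pore in the mitochondrial membrane, BAX rose. BAX was at 76.89, 65.23 and 68.87 CPM in siControl and at 111.0, 112.3 and 140.8 CPM in siDAB2IP, without overlap (log2 fold change 0.79, SE 0.120, adjusted p = 0.00372). The rise was called in 16 of 16 alternatives. BAK1 (0.32, adjusted p = 0.112) and BOK (0.30, adjusted p = 0.0972) were not called, and their groups did not overlap.

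Of the 6 other BH3-only genes, BMF, which binds and neutralizes pro-survival proteins, rose from 3.66 ± 0.418 to 6.78 ± 0.611 CPM (SD, n = 3 each; log2 fold change 0.89, SE 0.190, adjusted p = 0.0148). Its call was lost without siControl replicate 2 (adjusted p = 0.0782) or replicate 3 (adjusted p = 0.0629). BBC3, encoding PUMA (0.19, adjusted p = 0.536), and PMAIP1, encoding NOXA (0.37, adjusted p = 0.24), were not called. The direction for BBC3 turned (−0.0202) without replicate 3 of both groups.

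TNFSF10, encoding TRAIL, fell, and TNFRSF10A, encoding its receptor DR4, rose. TNFSF10 was at 10.41, 10.17 and 6.46 CPM in siControl and at 3.67, 3.66 and 2.15 CPM in siDAB2IP, without overlap (log2 fold change −1.51, SE 0.266, adjusted p = 0.00651). TNFRSF10A was at 121.1, 131.8 and 138.6 CPM in siControl and at 183.4, 186.4 and 170.1 CPM in siDAB2IP, again without overlap (0.46, SE 0.0972, adjusted p = 0.0135). The call for TNFRSF10A was lost without siControl replicate 1 (adjusted p = 0.0575) or replicate 2 (adjusted p = 0.073). TNFRSF10B, encoding the other receptor DR5, was not called (0.31, adjusted p = 0.14). With limma on log2(FPKM + 1) and no minimum FPKM, the calls were lost for TNFSF10 (−0.90, adjusted p = 0.0812), TNFRSF10A (0.45, adjusted p = 0.056) and BMF (0.42, adjusted p = 0.122).

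Of the IAP antagonists, which release caspases from XIAP, HTRA2 rose from 21.55 ± 1.77 to 32.03 ± 7.22 CPM (SD, n = 3 each; log2 fold change 0.57, SE 0.166, adjusted p = 0.046). The call held in 6 of 16 alternatives. It was lost without siControl replicate 1 (adjusted p = 0.0975), 2 (0.187) or 3 (0.136) and without siDAB2IP replicate 2 (0.0922) or 3 (0.0684). DIABLO was not called (0.67, adjusted p = 0.107). Its 28 to 60 counts a library are uncertain because a second gene ID with the same symbol covers nearly the same interval.

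None of the 7 caspases was called. CASP8, the initiator at death receptors, was at 28.97, 27.67 and 28.01 CPM in siControl and at 36.72, 32.40 and 35.95 CPM in siDAB2IP. The groups did not overlap, and the log2 fold change was 0.31 (SE 0.106, adjusted p = 0.0773). CASP9, the initiator at the apoptosome, was at 10.97, 9.47 and 6.93 CPM in siControl and at 8.74, 8.36 and 8.06 CPM in siDAB2IP. The siDAB2IP libraries lay within the siControl range, and the log2 fold change of −0.12 (adjusted p = 0.721) turned to 0.0063 without siControl replicate 1.

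BIRC5, encoding the mitotic IAP survivin, was at 28.41, 31.90 and 32.94 CPM in siControl and at 15.06, 23.48 and 5.74 CPM in siDAB2IP. The groups did not overlap, but the siDAB2IP libraries spread widely and replicate 3 was the lowest. The log2 fold change was −1.07 (SE 0.363, adjusted p = 0.0769). It was called with the replicate block (−1.22, adjusted p = 0.0276) and without siDAB2IP replicate 2 (−1.58, adjusted p = 0.0175) or replicate 3 (−0.69, adjusted p = 0.0168). With the replicate block 8 of the 36 genes were called, among them BIRC5 and the 5 called in the main comparison. That fit called 21% of all genes tested, against 14.2% without the block.

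**Figure D4:**
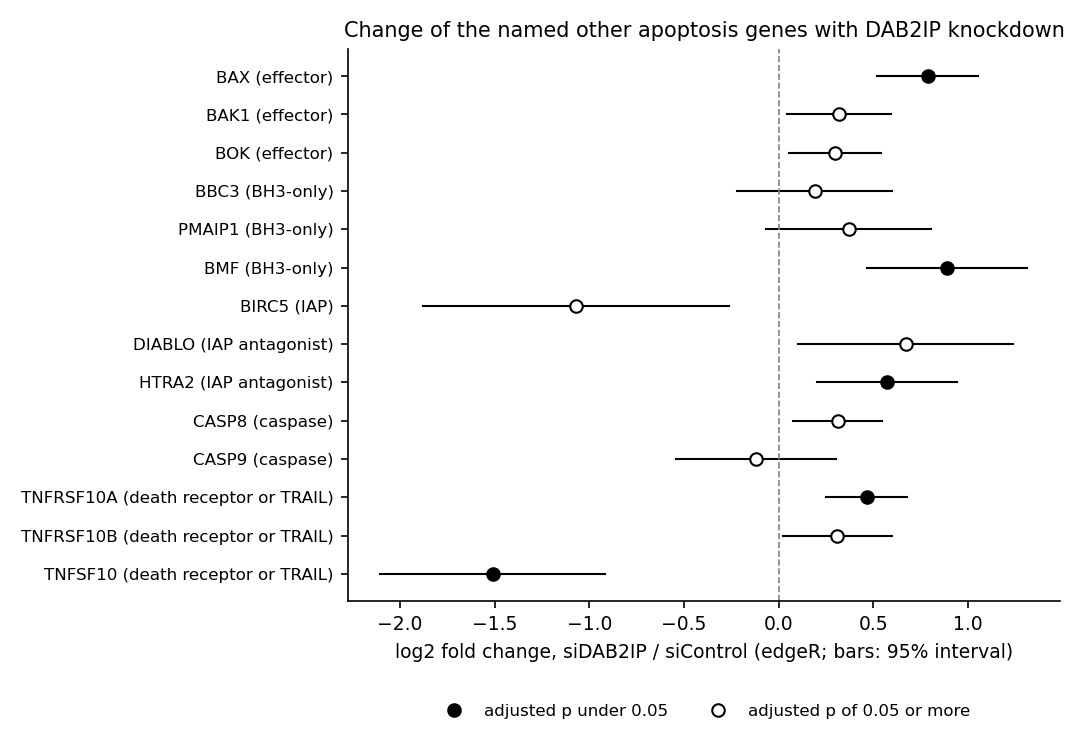
Log2 fold change of siDAB2IP over siControl with 95% intervals for the tested pathway genes named in the text, ordered by group, with filled points for adjusted p under 0.05. BAX, BMF, HTRA2 and TNFRSF10A rose and TNFSF10 fell, and BIRC5, whose siDAB2IP libraries ranged from 5.74 to 23.48 CPM, has one of the wide intervals.

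The genes whose log2 CPM followed BIRC3 most closely over the 6 libraries were PERP (Pearson r = 0.9997), PLEKHA5 (0.9989), MT2A (0.9987), NCOA1 (0.998) and PLS3 (0.9979), among 9436 genes averaging at least 10 CPM. 45 genes had r over 0.99. These values describe libraries that share their group difference, and no p is given for them. PERP, encoding a desmosomal protein, fell from 1309 ± 56.8 to 569.1 ± 129 CPM (SD, n = 3 each; adjusted p = 0.00252), and MT2A, a metallothionein, from 1214 ± 18.0 to 377.0 ± 108 CPM (adjusted p = 0.00119). In all 5 the siDAB2IP mean was lower than the siControl mean, a direction set by choosing them for likeness to BIRC3.

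**Figure D5:**
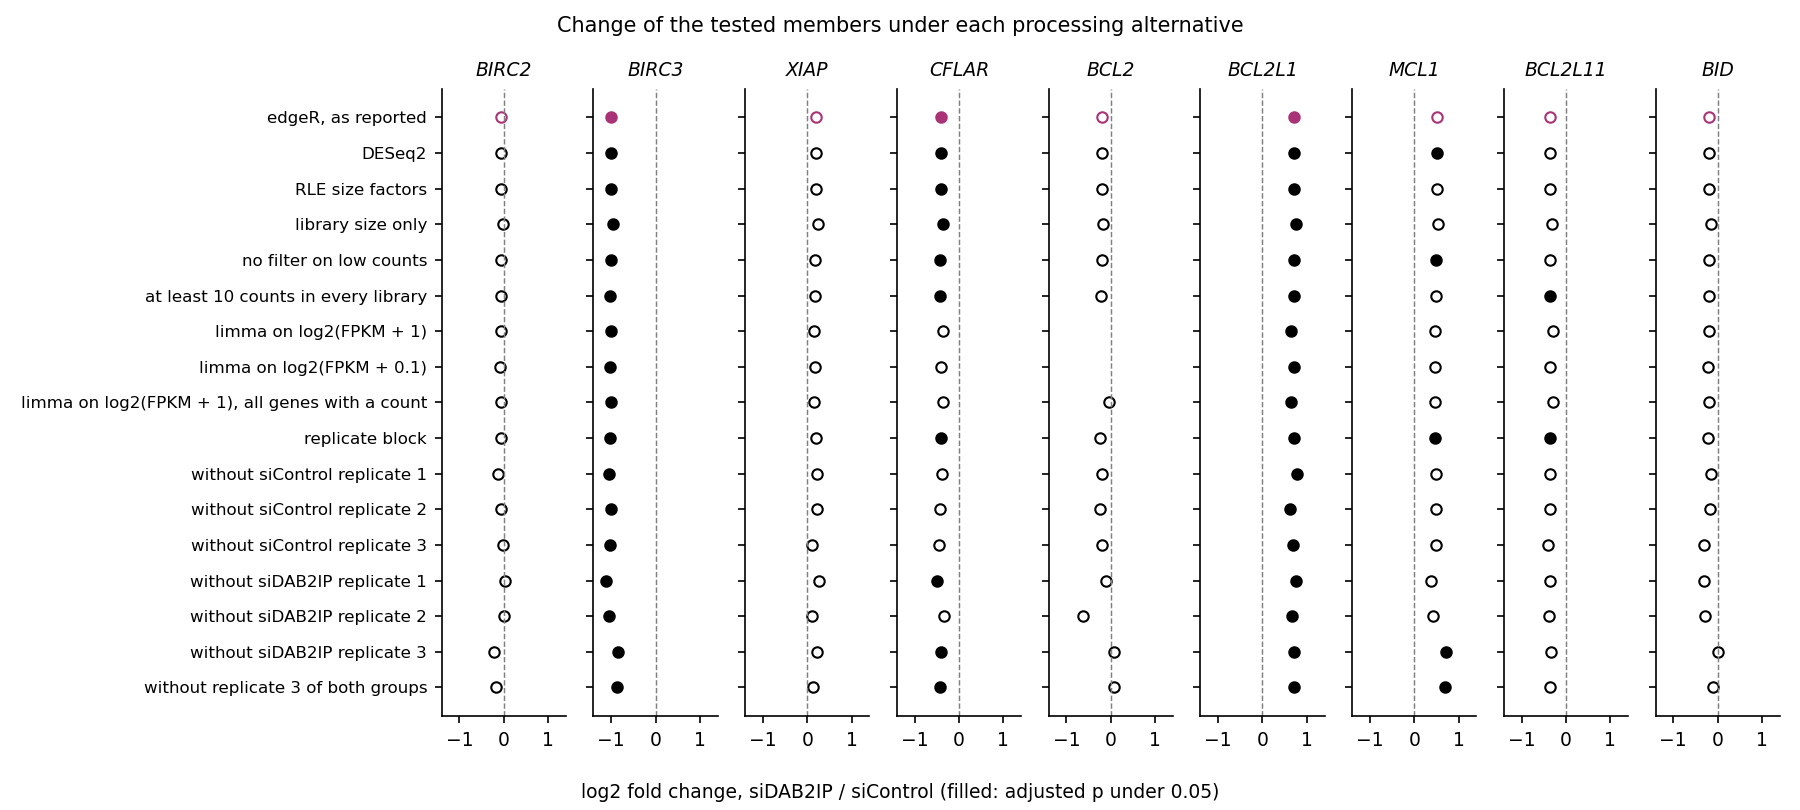
Log2 fold change of each tested member (siDAB2IP over siControl) in the analysis reported (top row) and in each alternative (rows below), with filled points for adjusted p under 0.05. BIRC3 (−1.12 to −0.86) and BCL2L1 (0.62 to 0.78) were called in 16 of 16 alternatives, CFLAR in 9, MCL1 in 5 and BCL2L11 in 2.

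Across the 16 alternatives the log2 fold change of CFLAR stayed between −0.50 and −0.33, that of BCL2L11 between −0.40 and −0.28 and that of MCL1 between 0.38 and 0.71. BIRC2, XIAP, BCL2 and BID were called in 0 of the alternatives in which they could be tested. With the replicate block 5 of the 9 tested members were called, MCL1 and BCL2L11 in addition to BIRC3, CFLAR and BCL2L1, beside 21% of all genes.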

How the data were processed

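According to the submitters' processing notes, STAR 2.6.1d, featureCounts 1.5.0-p3, DESeq2 1.20.0, edgeR 3.24.3 and hg38 were used, with no roles given. The authors deposited raw counts per gene and library, FPKM values and the gene length in bases. The FPKM were made from the counts, gene length and a library total that was 98.86 to 104.7% of the count total. Neither the strand used in counting nor the annotation is given in the sources used here, but all 58735 genes matched GENCODE release 29 (GRCh38) in start, end and strand. Library totals are in the report.

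The groups were compared on counts using edgeR 4.0.16 under R 4.3.3 (filterByExpr, TMM scaling, glmQLFit and glmQLFTest), with Benjamini-Hochberg adjustment over 15430 genes and a threshold of 0.05. CPM are TMM-normalized. The procedure was tested on simulated data. Count ratios were compared by exact permutation tests. Alternatives used DESeq2 1.42.0, RLE or library-size scaling, other filters, limma 3.58.1 on log2(FPKM + 1) or log2(FPKM + 0.1), a replicate block and leaving out each library. An alternative without replicate 3 of both groups was added after the data were seen.

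Same-numbered libraries deviated together from their group means (r = 0.26, 0.15 and 0.25 for replicates 1 to 3, against −0.28 to 0.021 for other pairs), which meets the criterion for pairs. The main fit and the permutation tests are unpaired, and values with the replicate number as a block are given where they change a call. The pairing is inferred from the data, as the labels name no shared batch. The members and lists were chosen with earlier results of these data known. Named genes are DAB2IP, the members, the called pathway genes with 10 further pathway genes, the 5 genes most like the called member with the smallest p, and genes overlapping a member. BOK, TNFRSF10B, the other genes named only as too low to test and the cell type markers were named outside this rule, and a few genes are not reported here.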

Additional observations from a re-analysis of the deposited data

How the results depend on the processing

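Left-out libraries gave 723 to 2524 called genes (2192 in the main analysis), 2 to 4 called members (3), of which 1 to 2 rose (1) and 1 to 2 fell (2), and 2 to 7 called pathway genes (5). limma on log2(FPKM + 0.1) called 1417 genes. With a pseudocount of 1 and no minimum FPKM it called 378, of which 1 was a pathway gene. Each limma setting found 1 member that fell. The replicate block called 3233 genes, 5 members and 8 pathway genes, and with it 2 members rose, as with DESeq2, with no filter on low counts and without replicate 3 of both groups. It changed no other call among the members and the DAB2IP result. Among the named genes, directions turned only for genes that were not called. With 1 library left out, log2 fold changes spanned −0.223 to 0.0171 for BIRC2 (0.0138 without siDAB2IP replicate 2), −0.63 to 0.0697 for BCL2, −0.317 to 0.00107 for BID and −0.298 to 0.00625 for CASP9. Without replicate 3 of both groups BCL2 was at 0.0746 and BBC3 at −0.0202. The cause was not tested. BCL2A1 was too low to test at this depth and has no fold. BCL2 held 28 to 75 counts a library, and whether depth or the spread between libraries limited its result was not tested.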
